A study of Mus musculus with 18 samples.

Results

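The genes described here are 35 mouse genes of B and T lymphocytes, the cells of adaptive immunity that assemble their antigen receptors by cutting and joining gene segments. They were chosen by symbol, as known markers and regulators of these lineages, but with earlier results of these data known. Every symbol matched an Ensembl gene among the 45229 genes of the deposited tables that could be named. By role they form 6 precursor B genes (Vpreb1, Igll1, Rag1, Rag2, Dntt and Il7r), 12 B lineage genes (Cd79a, Cd79b, Ms4a1, Cd22, Cd72, Blk, Blnk, Pax5, Ebf1, Ighm, Spib and Pou2af1), 15 T lineage genes (Cd3e, Cd3d, Cd3g, Cd247, Lck, Zap70, Cd4, Cd8a, Cd2, Cd5, Tcf7, Lef1, Bcl11b, Themis and Cd27) and 2 genes shared by both lineages (Ikzf1 and Ikzf3).

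The libraries were total RNA of female mice with a homozygous Xist deletion, called mutant here, and of females with a heterozygous Xist deletion, called control. By these labels the controls carried the deletion too, on 1 of their X chromosomes, although their columns of deposited signal are headed WT. Spleen, liver and brain were taken on postnatal day 1 with 2 libraries of each genotype per organ, and primary tail-tip fibroblasts with 3 of each, 18 libraries in all. Strain and the making of the deletion are not stated in the labels, and the series text names heart where the sample labels name brain. Xist, the RNA by which female cells silence an X chromosome, had a spleen signal of 1205 and 1121 in the controls against 117 and 51.2 in the mutants, and a liver signal of 594 and 730 against 178 and 257.

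A B cell starts as a precursor that expresses the recombinase Rag1 and Rag2, receives a survival signal through the interleukin-7 receptor, and displays its new heavy chain with a surrogate light chain made of VPREB1 and IGLL1. Ebf1 and Pax5 fix the B lineage from that stage on, and genes such as Ms4a1 and Cd22 are turned on or raised as the cell gains a complete receptor. In the newborn mouse the liver still makes blood cells and B cell precursors, the spleen is being filled with new B cells, and T cells, which mature in the thymus, are only beginning to arrive.

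The values are the authors' normalised read counts, called signal below. A single read was worth 0.0536 to 0.0751 of signal in the spleen libraries and 0.0343 to 0.0636 in the liver libraries. Reads in genes came to between 12356231 and 18910153 per spleen library, 15770903 and 29154395 per liver library, 15309398 and 23090631 per brain library and 18540454 and 23327426 per fibroblast library. The floor of detection, taken as 3 reads, was a signal of at most 0.225 in spleen and 0.191 in liver and covers counting error only. Spleen libraries of the same genotype differed in what other tissue they held. The summed signal of 12 pancreatic acinar genes was 1247 and 9.72 in spleen controls 1 and 2 and 18.2 and 9657 in spleen mutants 1 and 2, and that of 10 hepatocyte genes was 349 and 24.6 against 432 and 43.3. Of the pancreatic genes 5 had 0 reads in control 2. The hepatocyte sum was at least 103510 in every liver library, so the labelled organ was met there, and the neuron and glia genes summed to at least 6678 in every brain library.

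The precursor B and B lineage lists are set against each other below. The upstream sequences of a surrogate light chain pair, from the first, and of a B cell receptor signalling chain, from the second, are shown. They are the bases just before the RefSeq start site, of at most 250 bases, on the strand of the gene in build GRCm38.p6, and the capitals mark the E-box CAGGTG or its reverse complement CACCTG, a motif of the E proteins that drive early B cell genes. Vpreb1 lies at chr16:16869256-16869505 (minus strand), Igll1 at chr16:16863986-16864235 (minus strand) and Cd79a at chr7:24897247-24897380 (plus strand), the last cut to the 134 bases before the first annotated exon. Of the Vpreb1 bases, 190 (16869273 to 16869462) lie in an exon of a non-coding transcript annotated for the same gene.
Vpreb1: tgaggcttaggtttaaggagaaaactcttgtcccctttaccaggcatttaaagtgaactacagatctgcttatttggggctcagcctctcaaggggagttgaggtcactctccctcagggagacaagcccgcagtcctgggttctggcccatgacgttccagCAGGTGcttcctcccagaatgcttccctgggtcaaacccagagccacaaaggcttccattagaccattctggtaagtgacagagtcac
Igll1: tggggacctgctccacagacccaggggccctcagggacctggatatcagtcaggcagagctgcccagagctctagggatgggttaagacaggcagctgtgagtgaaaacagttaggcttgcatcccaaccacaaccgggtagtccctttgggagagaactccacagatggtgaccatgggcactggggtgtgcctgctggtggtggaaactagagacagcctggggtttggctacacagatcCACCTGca
Cd79a: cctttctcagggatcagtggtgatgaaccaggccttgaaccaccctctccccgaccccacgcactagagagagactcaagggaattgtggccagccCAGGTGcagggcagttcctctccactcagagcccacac
The E-box began 88 bases before the start site in Vpreb1, 8 bases in Igll1 and 154 bases in Cd79a. A search of both strands of the 250 bases upstream found it in 3 of the 6 precursor B genes, 3 of the 8 B lineage genes that had a promoter in the table and 6 of 13 T lineage genes, against 17.2% of 32851 mouse promoters. The octamer ATGCAAAT was found upstream of Blnk alone among the 28 members with a promoter, against 1.6% of all promoters. CTTTGA, the core of TCF1 and LEF1 sites, was found upstream of 4 of 13 T lineage genes (Cd3d, Zap70, Lef1 and Bcl11b) and of 0 of the 14 B cell genes searched, against 13.8%. GAGGAA, the core of PU.1 and Spi-B sites, was found upstream of 2 of 6 precursor B genes, 3 of 8 B lineage genes and 9 of 13 T lineage genes, against 23.3%. A match of letters is a description of the sequence and no evidence of binding. Promoters of Cd79b, Ms4a1, Blk, Ighm, Cd4, Cd2 and Ikzf3 were not in the table.

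By control mean, 30 of the 35 genes had their highest signal in spleen among the 4 tissues. For all 35 genes, the lowest of the 4 spleen libraries lay above the highest of the 4 liver libraries, although the tables were normalised separately. How many of all genes separate in this way was not counted, so the separation is not shown to be particular to lymphocyte genes. Among the 24 genes with a mean signal of at least 1 in both organs, the mean of the spleen controls was 2.07 to 12.9 times that of the liver controls, with a median of 4.45. The excess in spleen was 2.32-fold in the median for the 5 precursor B genes in that count and 4.79-fold for the 12 B lineage genes. Ms4a1, the B cell surface protein CD20, had the highest value of 12.9-fold, and Rag2 the lowest of 2.07-fold.

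**Figure D1:**
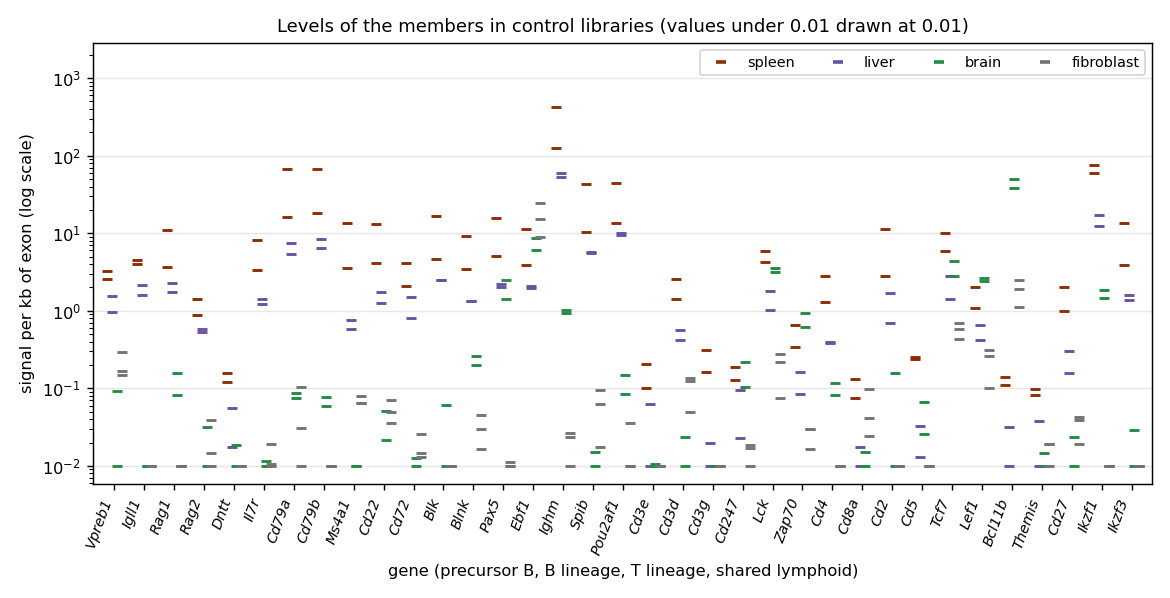
Signal per kb of exon of each of the 35 genes (log scale) in the control libraries, with a dash for each library: 2 of spleen, 2 of liver, 2 of brain and 3 of fibroblasts. Spleen is the highest tissue for 30 genes; Bcl11b, Lef1, Zap70 and Cd247 are highest in brain, and Ebf1 is highest in fibroblasts.

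Signal per kb of exon was used to compare levels of different genes, with the length taken over all annotated exons of a gene. That length can exceed that of the transcript expressed, so the comparison is rough. On this scale Ighm led in spleen with a control mean of 273. Ighm is the constant part of the IgM heavy chain. It was followed by Ikzf1 at 67.7 and by the signalling chains of the B cell receptor, Cd79b at 43.2 and Cd79a at 41.2. The control ranges of Ikzf1 and of both chains overlapped, as did those of the chains with Pou2af1 (28.9) and Spib (26.8), both regulators of B cell transcription, so 2 libraries did not fix the order of neighbours below Ighm. The surrogate light chain genes Igll1 at 4.28 and Vpreb1 at 2.91 were lower, and the T cell co-receptor and receptor genes Cd3e at 0.153 and Cd8a at 0.103 were the lowest of those named here.

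Against this background the mutant and control spleens were compared gene by gene. No spleen member passed the test. Of the 35 genes, 32 had a mean signal of at least 1 and were tested, and Dntt, Cd3e and Cd8a were below that filter. The log2 difference, mutant minus control, was above 0 for 13 genes and below 0 for 19, and limma called 0 of the 32 at an adjusted p of 0.05, as it called 0.0% of the 16578 genes tested. DESeq2 and edgeR, run on the read counts recovered from the signal, also called 0 of the 32, and DESeq2 called 1.1% of all genes. At an unadjusted limma p of 0.05 there was 1 gene of the 32, Lck, against 6.27% of all genes. The libraries of the 2 genotypes did not overlap for 4 genes that were higher in the mutants (Vpreb1, Igll1, Cd247 and Bcl11b), against 18.3% of all genes. They did not overlap for 3 that were lower (Lck, Cd5 and Ikzf1), against 21.9%, so both shares were below those of all genes. In whole organs, fewer cells of a type and less RNA per cell cannot be told apart. The replicates are called biological in the series text, and with 2 per genotype the p-values rest on the spread that limma pools over genes. Limma did not call Xist either, in spleen (limma adjusted p = 0.136, DESeq2 adjusted p = 3.8e-14) or liver (limma adjusted p = 0.454, DESeq2 adjusted p = 8.9e-05). A lack of limma calls is therefore no evidence that a gene did not change.

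**Figure D2:**
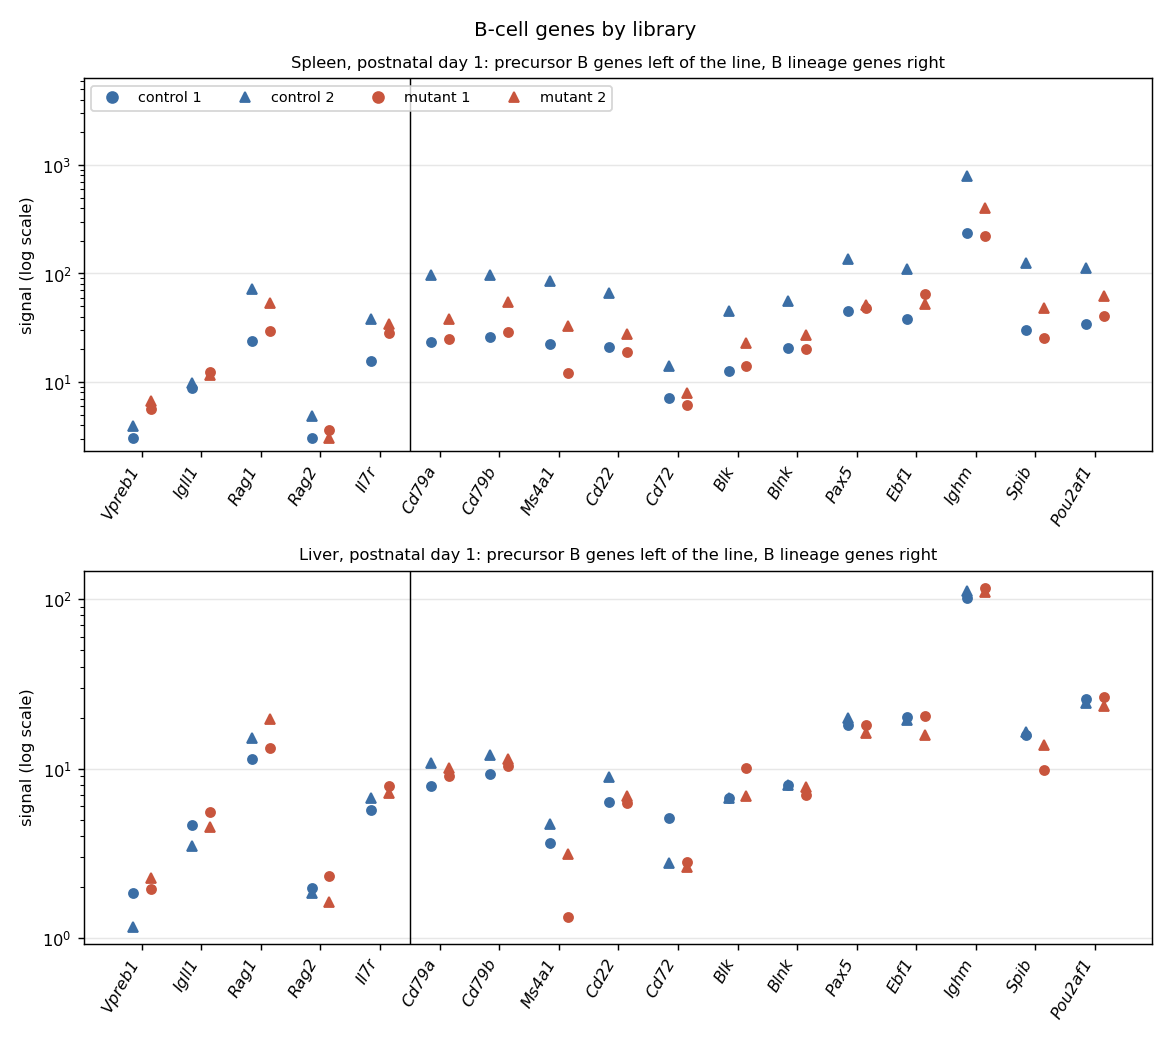
Signal (log scale) of the precursor B genes left of the line and the B lineage genes right of it, in the 4 spleen and the 4 liver libraries, for genes that passed the filter; circles are replicate 1 and triangles replicate 2, blue is control and red is mutant. In spleen, control 2 lies above the other 3 libraries for each of the 12 B lineage genes, while both mutants lie above both controls for Vpreb1 and Igll1.

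The surrogate light chain genes were the precursor B genes with separated groups in spleen. Vpreb1 had a signal of 3.03 and 3.94 in the controls and 5.63 and 6.70 in the mutants, from 44 and 66 against 75 and 125 reads. Both mutant libraries were above both controls, and the log2 difference was 0.75 ± 0.35 (SE, n = 2 and 2, limma adjusted p = 0.779). The gene overlaps Top3b on the other strand, whose mean spleen signal was 85.8, and whether reads were counted by strand is not given. Vpreb2, a near-identical copy named for that reason, had 0.483 and 0.775 against 0.451 and 0.59. Igll1, the other surrogate light chain gene, had 8.76 and 9.78 in the controls and 12.4 and 11.7 in the mutants. Its mutants were again above its controls, with a log2 difference of 0.36 ± 0.30 (limma adjusted p = 0.790).

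The other precursor genes overlapped in spleen. Il7r, the interleukin-7 receptor chain, had 15.7 and 37.8 in the controls and 28.5 and 34.0 in the mutants, so that both mutants lay between the controls. Rag1, the catalytic part of the recombinase, had 23.9 and 71.9 against 29.2 and 53.6, and again both mutants lay between the controls. Rag2, its partner, had 3.03 and 4.89 against 3.61 and 3.06. The log2 differences were 0.34 for Il7r, -0.07 for Rag1 and -0.19 for Rag2. Rag1 and Rag2 both overlap the gene B230118H07Rik, which had a mean spleen signal of 5.76. Dntt, the enzyme that adds bases at receptor gene joints, had 4 and 6 reads in the controls and 4 and 10 in the mutants and was not tested. The median over the 5 tested precursor genes was 0.34, against -0.07 over all genes tested, and it was -0.28 without control 1.

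The B lineage genes lay below 0 in spleen for 12 of 12, with a median log2 difference of -0.53, but 1 control library decided this. In every one of the 12, the range between the 2 controls was larger than the difference between the genotypes, and control 2 was 1.97 to 4.14 times control 1. Without control 2 the median was 0.27 and 2 of the 12 were below 0, whereas without control 1 it was -1.36 and 12 of 12 were below 0. The groups overlapped for all 12.

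The chains that signal from the B cell receptor showed this pattern. Cd79a had 23.4 and 96.7 in the controls and 25.0 and 38.2 in the mutants, a log2 difference of -0.62 ± 0.63 (limma adjusted p = 0.814). Control 2 stood apart, and both mutants were nearer control 1. Cd79b had 26.1 and 97.6 against 29.1 and 54.0, with a difference of -0.35. Ighm had 237 and 792 against 222 and 397, a log2 difference of -0.54 ± 0.60 (limma adjusted p = 0.825). For both, control 1 and mutant 1 were the low libraries.

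Other surface proteins of B cells had differences of -1.10 to -0.49. Ms4a1 had 22.3 and 84.7 in the controls and 12.2 and 32.9 in the mutants, the lowest log2 difference of the B lineage genes at -1.10 ± 0.69 (limma adjusted p = 0.779). Mutant 1 was below both controls, and mutant 2 lay between them. Cd22, an inhibitory receptor that dampens B cell signalling, had 20.9 and 66.7 against 18.9 and 27.6, a difference of -0.70. Cd72, another inhibitory receptor, had 7.10 and 14.0 against 6.16 and 7.83, a difference of -0.49, and it overlaps Tesk1, which had a mean spleen signal of 46.1. For Cd22 and Cd72 as for Ms4a1, mutant 1 was the lowest library.

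The intracellular signalling genes were nearer control 1 than control 2 in both mutants. Blk, a Src-family kinase of B cells, had 12.5 and 44.7 in the controls and 14.0 and 22.9 in the mutants, a difference of -0.40. Blnk, an adaptor that links the receptor to its effectors, had 20.4 and 55.4 against 20.2 and 26.9, a difference of -0.52.

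Among the transcription regulators the differences ran from -0.80 to -0.16 on the log2 scale. Pax5, the factor that commits cells to the B lineage, had 45.2 and 137 in the controls and 47.6 and 51.03 in the mutants, a difference of -0.67. Ebf1, which acts before it, had 38.2 and 110 against 65.0 and 52.3, a difference of -0.16. For both, the mutants lay between the controls. Spib, an ETS factor, had 29.9 and 124 against 25.4 and 47.6, a difference of -0.80. Pou2af1, a co-activator at octamer sites, had 34.5 and 113 against 40.5 and 62.1, a difference of -0.31.

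T lineage genes were at low levels in spleen and 10 of the 13 tested lay above 0, with a median of 0.20 that was -0.06 without control 1 and 0.57 without control 2. Lck, the kinase that starts T cell receptor signalling, had the smallest unadjusted p of the spleen members. Its signal was 17.2 and 12.3 in the controls and 7.06 and 7.99 in the mutants, and both mutants were below both controls. Its log2 difference was -0.91 ± 0.32 (limma adjusted p = 0.763). Bcl11b, a factor of T cell commitment, went the other way with 0.896 and 1.13 against 1.73 and 3.00, a log2 difference of 0.89 ± 0.43 (limma adjusted p = 0.779).

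The CD3 chains, the signalling part of the T cell receptor, were near the limit of these libraries. Cd3d had 2.55 and 4.65 in the controls and 4.13 and 4.77 in the mutants, and the groups overlapped. Cd3g had 1.03 and 0.537 against 0.901 and 1.77, which also overlapped. Cd247, the zeta chain, had 0.689 and 1.01 against 1.28 and 1.55, from 10 and 17 against 17 and 29 reads, and it overlaps Pou2f1, which had a mean spleen signal of 104. Both Cd247 mutants were above both controls. The control means of Cd3g (0.785) and Cd247 (0.852) were under 1, so both genes passed the filter only through the mutants. Cd3e had 6 and 14 reads in the controls and 13 and 26 in the mutants, and Cd8a had 4 and 8 against 15 and 20. Neither of these passed the filter on the mean, so no test was made.

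The remaining T lineage genes had groups that overlapped, except Cd5. Tcf7, a factor of early T cells, had 15.3 and 26.1 in the controls and 25.2 and 30.8 in the mutants, a log2 difference of 0.47. Lef1, its relative, had 9.51 and 17.6 against 15.8 and 13.0, a difference of 0.14. Cd27, a co-stimulatory receptor that overlaps Vamp1, had 2.34 and 4.71 against 4.51 and 6.33, a difference of 0.60. Vamp1 had a mean spleen signal of 25.7. Cd4, the co-receptor of helper T cells, had 5.17 and 11.3 against 10.7 and 6.00, and Cd2, an adhesion receptor, had 4.83 and 19.9 against 5.11 and 9.60. Control 2 was the highest library for both. Zap70, the kinase that binds the phosphorylated CD3 chains, had 1.03 and 1.97 against 1.35 and 2.20. Themis, a regulator of thymocyte selection, had 0.965 and 1.13 against 1.20 and 0.965. Cd5, an inhibitory receptor, had 1.17 and 1.25 against 1.13 and 1.02 and a log2 difference of -0.12, the smallest difference of the 7 genes without overlap.

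The zinc finger factors shared by both lineages had lower means in mutant spleens. Ikzf1 had 437 and 346 in the controls and 253 and 305 in the mutants, with both mutants below both controls and a log2 difference of -0.48 ± 0.31 (limma adjusted p = 0.779). Ikzf3 had 33.7 and 120 against 36.1 and 47.7 and, like the B lineage genes, a single high library, control 2.

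**Figure D3:**
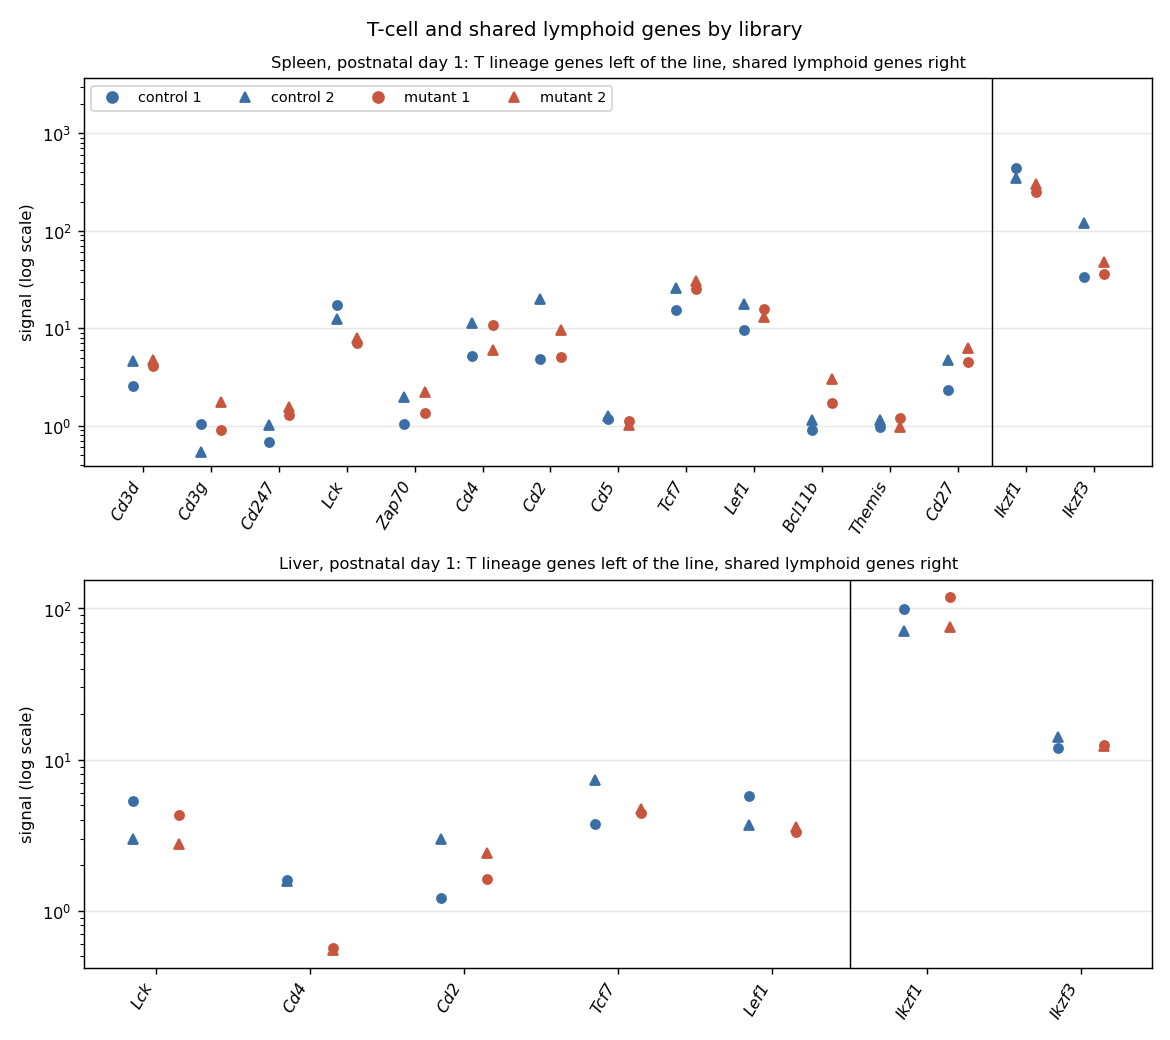
Signal (log scale) of the T lineage genes left of the line and of Ikzf1 and Ikzf3 right of it, in the 4 spleen and the 4 liver libraries, for genes that passed the filter; symbols as in the plot of B cell genes. In spleen both Lck mutants lie below both controls and both Bcl11b mutants lie above; in liver both Cd4 mutants lie below both controls.

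In liver the member values within a genotype were closer in the median than in spleen, and no member passed the test there either. The libraries still differed in other cells, with sums of 12 erythroid genes of 24188 and 8033 in the controls and 30341 and 13245 in the mutants. Of the 35 genes 24 were tested, 11 above and 13 below 0. Limma called 0 of them and 0.0% of the 15075 genes tested, DESeq2 and edgeR also called 0 of the 24, and DESeq2 called 1.4% of all genes. At an unadjusted limma p of 0.05 there was 1 gene, Cd4, against 6.67% of all genes. The genotypes did not overlap for 3 genes that were higher in the mutants (Vpreb1, Il7r and Blk), against 23.5% of all genes, and for 6 that were lower (Ms4a1, Blnk, Pax5, Spib, Cd4 and Lef1), against 13.1%.

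All 5 tested precursor B genes lay above 0 in liver, with a median of 0.28, against 0.05 over all genes. Vpreb1 had 1.84 and 1.17 in the controls and 1.95 and 2.26 in the mutants, from 29 and 29 against 41 and 66 reads. Il7r had 5.72 and 6.67 against 7.85 and 7.17. The mutants of both genes were above the controls, by a log2 difference of 0.40 ± 0.31 for Vpreb1 (limma adjusted p = 0.877) and 0.26 ± 0.23 for Il7r (limma adjusted p = 0.891). Igll1 had 4.64 and 3.50 against 5.52 and 4.53, and Rag1 had 11.4 and 15.1 against 13.3 and 19.6. For these 2 genes the groups overlapped, with differences of 0.28 and 0.29. Rag2 had 1.97 and 1.85 against 2.33 and 1.65, a difference of 0.03.

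The B lineage genes split in liver into 4 above and 8 below 0, with a median of -0.12. The receptor genes were nearly level. Cd79a had 7.89 and 10.7 in the controls and 8.99 and 10.1 in the mutants, Cd79b had 9.35 and 12.1 against 10.4 and 11.4, and Ighm had 101 and 112 against 116 and 111. In Cd79a and Cd79b both mutants lay between the controls. The log2 difference of Ighm was 0.09 ± 0.21 (limma adjusted p = 0.976).

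Ms4a1 and Spib had the most negative differences of the B lineage genes in liver. Ms4a1 had 3.63 and 4.70 in the controls and 1.33 and 3.12 in the mutants, from 57 and 117 against 28 and 91 reads. Both mutants were below both controls, and the log2 difference was -0.85 ± 0.41 (limma adjusted p = 0.794). Spib had 15.8 and 16.4 against 9.85 and 13.8, also without overlap, and a difference of -0.45 ± 0.25 (limma adjusted p = 0.826). These were the 2 B lineage genes with the most negative differences in spleen as well.

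The other B lineage genes of the liver differed by 0.41 or less on the log2 scale. Pax5 had 18.1 and 19.8 in the controls and 18.0 and 16.2 in the mutants, and Blnk had 8.01 and 7.96 against 6.95 and 7.76. The mutants of both were lower without overlap, by margins under the range of the mutants themselves. Blk was higher without overlap, with 6.68 and 6.67 against 10.1 and 6.86. Cd22 had 6.36 and 8.88 against 6.28 and 6.86, and Cd72 had 5.09 and 2.77 against 2.81 and 2.64. Ebf1 had 20.1 and 19.4 against 20.5 and 15.7, and Pou2af1 had 25.8 and 24.3 against 26.4 and 23.4. These last 4 genes had groups that overlapped.

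Only 5 T lineage genes passed the filter in liver. Cd4 had 1.59 and 1.57 in the controls and 0.571 and 0.549 in the mutants, from 25 and 39 against 12 and 16 reads. The groups did not overlap and were each tight, and the log2 difference of -0.97 ± 0.28 had the smallest p of the members (limma adjusted p = 0.675). Both mutants were under a signal of 1, so Cd4 passed the filter on the mean only through the controls. In spleen the Cd4 groups overlapped. Lef1 had 5.72 and 3.70 against 3.33 and 3.60, a difference of -0.37 without overlap. Lck had 5.34 and 2.97 against 4.28 and 2.75, Tcf7 had 3.75 and 7.28 against 4.43 and 4.74, and Cd2 had 1.21 and 2.97 against 1.62 and 2.40. In each of these 3 genes the groups overlapped. The T lineage median was -0.19, and it was -0.01 when the genes below the filter were added. Ikzf1 had 99.5 and 71.4 against 118 and 75.0 and Ikzf3 had 12.0 and 14.2 against 12.6 and 12.4, both with overlap. Below the filter were Dntt and 10 T lineage genes, Cd3e, Cd3d, Cd3g, Cd247, Zap70, Cd8a, Cd5, Bcl11b, Themis and Cd27, with at most 19 reads in any liver library.

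**Figure D4:**
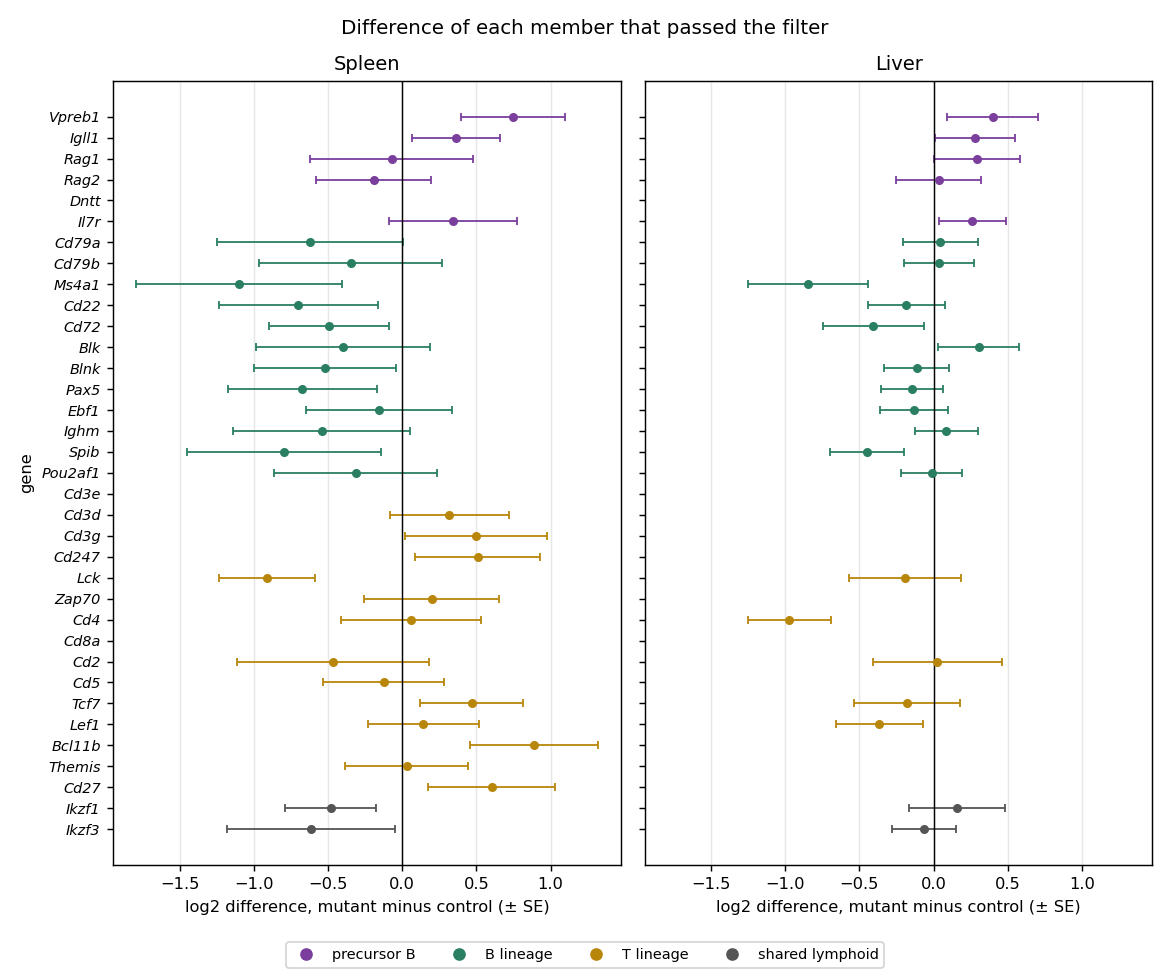
Log2 difference in signal, mutant minus control, of each member that passed the filter, with bars of ± 1 SE from limma (2 libraries of each genotype), in spleen and in liver; genes with no point were below the filter. The 12 B lineage genes of the spleen lie left of 0 with bars of up to 0.69, and the 5 precursor B genes of the liver lie right of 0.

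A comparison between gene lists within each library depends little on how the libraries were scaled. The B lineage list also holds genes that are on from the precursor stage, such as Ebf1 and Pax5. It is therefore not a list of mature B cells alone. The mean log2 level of the precursor B genes minus that of the B lineage genes was -1.74 and -2.64 in the spleen controls and -1.21 and -1.58 in the spleen mutants. In liver it was -1.41 and -1.56 in the controls and -1.05 and -1.11 in the mutants. The mutants were above the controls without overlap in both organs, by 0.79 in spleen and 0.40 in liver. No test was made, since the lists were chosen with earlier results of these data known. Leaving out any 1 precursor gene gave 0.67 to 0.90 in spleen and 0.37 to 0.46 in liver, and leaving out a spleen control gave 0.34 without control 2 and 1.25 without control 1.

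The same lists were set against 12 genes of all leukocytes, such as Ptprc and Coro1a. The B lineage level minus the leukocyte level was -2.46 and -1.77 in the spleen controls against -2.60 and -2.64 in the mutants. In liver it was -2.15 and -2.28 against -2.40 and -2.51. The mutants were lower without overlap in both organs, by -0.51 and -0.24. The spleen value was -0.17 without control 2 and -0.85 without control 1. The precursor level against the same genes overlapped in both organs, with -4.19 and -4.41 against -3.81 and -4.22 in spleen and -3.57 and -3.84 against -3.45 and -3.63 in liver. The T lineage level minus the leukocyte level overlapped in spleen, and in liver it was lower in the mutants, with -3.97 and -4.06 against -4.36 and -4.52. The T lineage level rested on 13 genes in spleen but 5 in liver (Lck, Cd4, Cd2, Tcf7 and Lef1), with no CD3 chain among these. Of the 5, Cd4 passed the filter only through the controls. Nor is the list limited to T cells. In brain, where Cd3e was at most 0.0429, Lck, Tcf7 and Lef1 had control means of 9.75, 9.39 and 22.4. The liver value is therefore not a measure of T cells alone. On the signal scale, 7 further T cell genes had a mean log2 level in liver of 3.27 and 3.35 against 3.36 and 3.58, not lower. The T lineage level was also set against the B lineage level. T minus B lineage overlapped in spleen, with -3.08 and -4.25 against -2.75 and -3.13. In liver it was lower in the mutants, with -1.81 and -1.78 against -1.96 and -2.002.

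**Figure D5:**
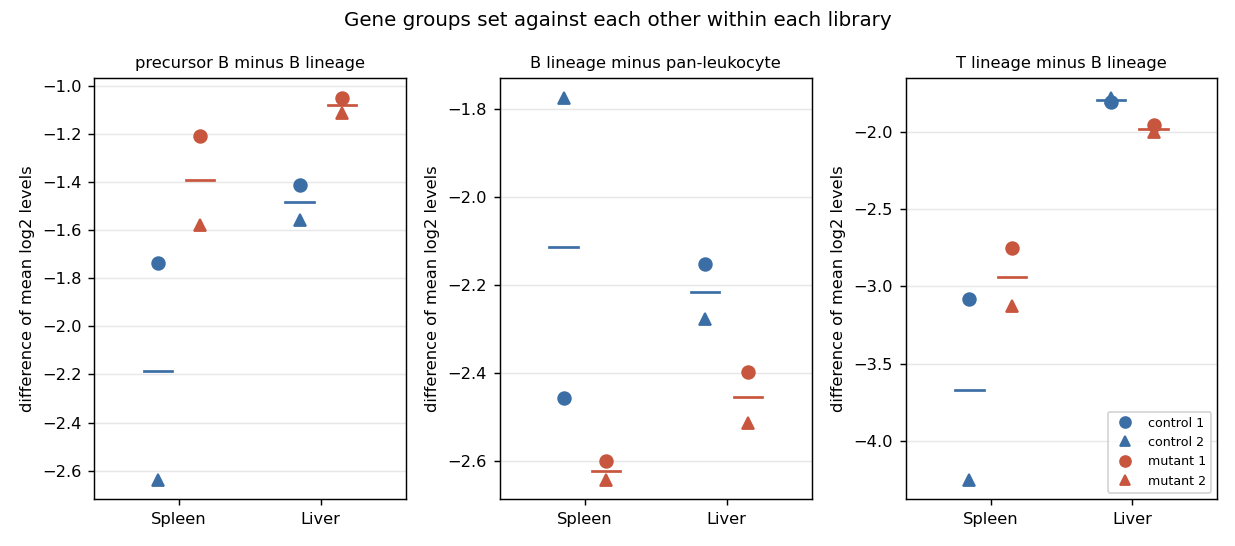
Mean log2 level of a gene list minus that of another list within each library of spleen and liver; circles are replicate 1 and triangles replicate 2, blue is control, red is mutant, and bars are group means. The precursor B minus B lineage value is higher in the mutants of both organs and the B lineage minus pan-leukocyte value is lower, while T minus B lineage overlaps in spleen.

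When the libraries were rescaled so that the leukocyte genes had the same mean level, 8 of the 12 B lineage genes in spleen were lower in the mutants without overlap, with 0 higher. Over all members 9 were lower, against 2.53% of all genes, and 8 were higher, against 11.6%. The 8 higher genes were 2 precursor genes (Vpreb1 and Il7r) and 6 T lineage genes (Cd3d, Cd247, Zap70, Tcf7, Bcl11b and Cd27). Igll1, Lck, Cd5 and Ikzf1 overlapped on this scale. In liver 8 members were lower, against 21.8%, and 1 was higher (Il7r), against 15.8%. Limma called 0 members on this scale, with adjusted p of at least 0.593, the value of Cd4 in liver. Rescaling to 26 other B cell genes instead gave another count. In spleen 0 of the 12 B lineage genes were then lower and 0 higher without overlap, and their median was -0.10. Over all spleen members 0 were lower, against 0.392% of all genes, and 10 were higher (3 precursor and 7 T lineage genes), against 27.0%, and 7 of 32 changed sign. In liver 5 members were lower, against 15.5%, and 2 were higher, against 22.5%. Both rescalings were chosen after the values were seen.

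Ratios of reads between single genes, also chosen after the values were seen, gave a like contrast for Ms4a1. There were 0.950 and 0.876 reads of Ms4a1 per read of Cd79a in the spleen controls against 0.487 and 0.861 in the mutants, and in liver 0.460 and 0.438 against 0.148 and 0.311. Both mutants were below both controls in each organ, by a small margin for spleen mutant 2. Vpreb1 reads per Cd79a read were 0.129 and 0.0407 against 0.225 and 0.176 in spleen, higher without overlap. In liver they were 0.234 and 0.109 against 0.217 and 0.225, with overlap. For Igll1, the other surrogate light chain gene, the ratio overlapped in both organs, with 0.374 and 0.101 against 0.496 and 0.306 in spleen and 0.589 and 0.326 against 0.614 and 0.451 in liver. Light chain per heavy chain, as Igkc reads per Ighm read, was 0.129 and 0.144 in the liver controls against 0.0939 and 0.113 in the mutants, and in spleen 0.165 and 0.218 against 0.112 and 0.175, with overlap. Of the other ratios computed, Cd22 per Cd79a was lower in the liver mutants and Cd79b per Cd79a higher in the spleen mutants, each overlapping in the other organ, and Ighd per Ighm and Cd2 per Cd3d overlapped in both.

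Reads over receptor variable segments were looked at after the values were seen. In spleen 113 heavy chain variable genes had a summed signal of 10.5 and 47.2 in the controls and 16.8 and 19.8 in the mutants, from 152 and 792 against 224 and 369 reads. The 100 kappa variable genes had 10.7 and 42.9 against 6.99 and 13.7. Control 2 was the highest library for both, and the groups overlapped. In liver the heavy chain segments had a summed signal of 6.996 and 6.834 against 6.19 and 5.46 and the kappa segments had 4.39 and 3.98 against 2.81 and 2.64. Both sets were lower in both liver mutants, from 110 and 170 against 130 and 159 reads and from 69 and 99 against 59 and 77 reads. T cell receptor variable segments, 141 genes, had 3.58 and 3.58 against 6.16 and 5.47 in spleen, from 52 and 60 against 82 and 102 reads, and both mutants were above both controls. They overlapped in liver, with 2.16 and 0.643 against 1.52 and 0.549. In brain, where Cd3e and Cd3g were at or near 0, they were again higher in both mutants, with 0.273 and 0.300 against 1.42 and 1.11 from at most 25 reads, so the separation was not limited to spleen.

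Further B cell genes from a list of 26 were less uniform. In spleen 6 were above and 20 below 0, with a median of -0.31, and 5 were lower without overlap and 0 higher, against 21.9% and 18.3% of all genes. Their mean log2 level was 4.65 and 5.80 in the spleen controls against 4.55 and 5.03 in the mutants, with control 2 highest. In liver 23 were tested, 14 above and 9 below 0, with a median of 0.05. Limma called 0 in either organ. Fcer2a, the IgE receptor CD23 of mature B cells, had 3.79 and 6.50 in the spleen controls and 0.901 and 1.39 in the mutants, a log2 difference of -1.75 ± 0.43 (limma adjusted p = 0.534, DESeq2 adjusted p = 0.0739), and it was below the filter in liver. Ciita, the activator of class II genes, was lower without overlap in both organs, with 14.1 and 25.4 against 7.14 and 12.4 in spleen and 2.16 and 2.61 against 0.856 and 1.37 in liver. Foxo1, a factor of early B cells, had 42.4 and 63.4 against 76.5 and 80.0 in liver, and it overlapped in spleen. Its control means were 65.3 in spleen and 52.9 in liver. Those of members tested in both organs were at least 2.07-fold apart. Which liver cells carried the Foxo1 signal was not tested. Of 9 class II genes, 9 of 9 lay below 0 in spleen and 6 of 7 in liver, with medians of -0.46 and -0.41. Their mean log2 level in spleen was 3.93 and 4.90 in the controls against 3.89 and 4.05 in the mutants, with control 2 highest. H2-Ab1 had 43.6 and 59.9 against 38.7 and 33.0 in spleen and 8.20 and 4.62 against 3.05 and 3.53 in liver, lower without overlap in both.

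Among 10 further precursor genes, 5 of 9 tested lay above 0 in spleen, with 2 higher and 2 lower without overlap, against 18.3% and 21.9% of all genes. These genes are not limited to B cell precursors. They summed to 1559 to 2152 in the brain controls, where 7 passed the filter, and to 1659 to 2850 in the spleen controls. In liver 8 of 9 lay above 0, with 5 higher and 1 lower, against 23.5% and 13.1%. Their medians were 0.46 and 0.27. Arpp21 had 3.45 and 3.996 in the spleen controls against 6.84 and 6.86 in the mutants, and Cecr2 had 269 and 188 against 129 and 124, so these 2 went opposite ways. Cd93, an early B cell surface protein that endothelium also makes, had 41.3 and 47.2 against 74.5 and 65.0 in liver. Bst1 had 3.69 and 4.50 against 5.52 and 5.94 there.

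The interleukin-7 and cytokine survival genes lay above 0 for 12 of 15 tested in spleen and 11 of 14 in liver, with medians of 0.20 and 0.09, and limma and DESeq2 called 0. Flt3, a receptor of lymphoid progenitors, was higher without overlap in both organs, with 17.6 and 24.4 against 32.1 and 26.9 in spleen and 3.88 and 3.34 against 8.23 and 4.80 in liver. Bcl2l11, which promotes lymphocyte death, had 33.2 and 40.6 against 62.9 and 51.3 in liver and overlapped in spleen. Bcl2l1, a survival gene, had 321 and 234 against 138 and 200 in spleen and overlapped in liver.

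Of the lymphoid chemokine and stroma genes, 8 of 10 lay above 0 in spleen, with a median of 0.37, and 3 of 7 in liver, with a median of -0.15. DESeq2 called 1 higher in each organ. Madcam1, the vessel receptor through which lymphocytes home, had 2.55 and 7.75 in the spleen controls against 52.9 and 8.74 in the mutants (DESeq2 adjusted p = 0.0221, limma adjusted p = 0.779), so mutant 1 carried the difference. Klf2, a factor of lymphocyte trafficking that endothelium also makes, had 5.85 and 7.88 against 38.5 and 15.5 in liver (DESeq2 adjusted p = 0.0278, limma adjusted p = 0.641). Cxcl12, the chemokine that holds B cell precursors in their niche, had 243 and 322 against 107 and 164 in liver and 703 and 1022 against 1148 and 1202 in spleen, without overlap and in opposite directions.

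Of 24 further T cell genes, 11 of 18 tested in spleen and 5 of 7 in liver lay above 0, with medians of 0.22 and 0.14. Thy1, a surface protein of T cells, had 3.38 and 5.78 against 6.76 and 9.54 in spleen. Gimap6 had 11.3 and 16.1 against 23.8 and 19.9 in liver. Each was higher without overlap in the organ given and did not pass limma.

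Genes of other cells and states differed by genotype in the same libraries. Of 13 targets of the glucocorticoid receptor, 11 in spleen and 13 in liver lay above 0, and their summed signal was 532 to 681 in the spleen controls against 1692 to 2221 in the mutants and 1152 to 1275 against 2199 to 2788 in liver. DESeq2 called 10 of them higher in spleen and 7 in liver, against 0.953% and 0.955% of all genes, and limma called 0. Stroma genes were above 0 for 10 of 10 in spleen and 7 of 8 in liver, with sums of 2166 to 2737 against 3580 to 5397 and 430 to 540 against 604 to 681. Endothelial genes were above 0 for 7 of 8 and 8 of 8, with sums of 945 to 1463 against 1506 to 1595 and 608 to 680 against 830 to 856. The tubulin Tubb3 and 7 other neuron and glia genes had sums of 17.0 to 18.0 against 30.9 to 34.6 in spleen, with 5 of 6 tested above 0. Proliferation genes lay below 0 for 12 of 12 in spleen, with sums of 3446 to 9337 against 2789 to 3070, and overlapped in liver. Erythroid genes lay below 0 for 12 of 12 in spleen and above 0 for 11 of 12 in liver, and their sums overlapped in both. Stem and progenitor genes had sums of 452 to 562 against 593 to 603 in spleen, and their sums overlapped in liver. In spleen 5 of 7 tested were above 0 and 4 of them were higher without overlap, against 18.3% of all genes. Neutrophil genes had sums of 4037 and 12169 in the spleen controls against 4257 and 8618 in the mutants, with control 2 highest as for the B lineage genes and 10 of 12 below 0. Natural killer and innate lymphoid genes, which share some T cell genes, had sums of 90.7 to 91.8 against 97.5 to 101 in spleen and 26.6 to 27.1 against 36.9 to 56.3 in liver. In spleen, hepatocyte and pancreatic acinar genes differed by library, as given above, with 8 of 9 and 11 of 11 above 0 and sums that overlapped. The part of any of these in the values of the lymphocyte genes was not tested.

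Lymphocyte genes were looked at in the other 2 tissues to show their level where few such cells are known. In brain 10 members passed the filter and limma called 0 of them, against 0.0237% of 16909 genes, with 1, Lef1, at an unadjusted p of 0.05, against 4.07%. DESeq2 called 0 of them, against 0.242%, and edgeR called 0, against 0.0237%. Several are known as genes of neurons too. Bcl11b had 411 and 307 in the controls and 284 and 312 in the mutants, a level per kb of 44.2 in the controls. Ebf1 had 59.1 and 84.4 against 88.8 and 78.8, Pax5 had 12.5 and 21.9 against 25.8 and 20.7, and Lck had 9.12 and 10.4 against 8.46 and 10.1. The groups overlapped for these genes. Lef1 had 23.3 and 21.6 against 14.9 and 18.2 and Ighm had 1.75 and 1.93 against 1.10 and 1.25, and these 2 were lower without overlap, against 16.3% of all genes, and 0 were higher, against 13.8%. Cd3e and Cd3g, which code for chains of the T cell receptor complex, had signals of at most 0.0429 and 0 in the 4 brain libraries.

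In fibroblasts 4 members passed the filter and limma, DESeq2 and edgeR called 0 of them, against 0.0%, 0.0229% and 0.0% of 13077 genes, with 0 at an unadjusted limma p of 0.05, against 0.971%. Ebf1, which mesenchymal cells also express, had 148, 242 and 86.4 in the controls and 96.7, 350 and 167 in the mutants. Bcl11b had 15.6, 8.97 and 20.2 against 44.2, 7.70 and 16.7. Tcf7 had 1.53, 1.15 and 1.82 against 1.76, 0.719 and 1.32, and Lef1 had 2.29, 0.897 and 2.76 against 4.96, 1.08 and 1.05. All 4 had groups that overlapped, where 2.07% of all genes were higher and 1.65% lower without overlap. Cd79b, Blk, Cd3e, Cd3g, Cd2, Ikzf3 and Rag1 had 0 reads in all 6 fibroblast libraries.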

How the data were processed

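Directional libraries of RiboMinus-depleted total RNA were read for 50 bases, per the labels' protocols. The authors deposited a table of normalised signal per tissue. Counting with HTSeq 0.6.1, normalisation with edgeR and build GRCm38 are named in the submitters' processing notes, and no source used here names the aligner, the annotation release or the use of strand. The deposited signal values were whole multiples of what 1 read is worth (100% of values, within 0.05 of a read), so reads could be recovered. Ensembl identifiers were named from a GENCODE annotation of GRCm38, and 849 of 46078 did not match.

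Each tissue was fitted over its whole table with limma 3.58.1 in R 4.3.3, on log2(signal + 0.5), for genes with a mean signal of at least 1, with Benjamini-Hochberg adjusted p at 0.05, two-sided. Fold changes on this scale are understated for low genes. As an alternative, count tests on the recovered reads were added: DESeq2 1.42.0 called 182, 211, 41 and 3 genes in spleen, liver, brain and fibroblasts, and edgeR 4.0.16 (quasi-likelihood) called 0, 0, 4 and 0. Other alternatives were the pseudocount, the filter, the scaling, a replicate block and leaving out each library. Members were all named. Of each of 21 other lists, the genes with the smallest limma p in spleen and in liver could be named. The members and lists were chosen with earlier results of these data known. The code was tested on simulated data.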

Additional observations from a re-analysis of the deposited data

How the results depend on the processing

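Limma called 0 members in every tissue under every alternative run, and DESeq2 and edgeR called 0. The number of genes called did move. In spleen it was 0, and 22 with no filter, 13 under leukocyte scaling, 13 under scaling to other B cell genes, 182 with DESeq2, and 0 to 173 when a library was left out (170 without mutant 1, 173 without mutant 2). In liver it was 0, and 11 with no filter and 211 with DESeq2. In brain it was 4, and 13 with no filter, 41 with DESeq2 and 6 to 112 when a library was left out (112 without control 2). In fibroblasts it was 0, and 3 with DESeq2. The cause was not tested.

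The replicate numbers do not pair the libraries by the labels. Each gene's deviation from its genotype mean was correlated, over the tested genes, between the same-numbered control and mutant libraries. This gave -0.03 in spleen, 0.58 in liver and 0.08 in brain, with 2 pairs each that share 1 value by construction. A fit with the replicate number as a block called 356 genes in spleen and 60 in liver, and 0 members. In the blocked fit Ms4a1 had the smallest adjusted p of the spleen members, 0.0952.

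Medians of the lists in spleen moved when a library was left out. They ran from -0.28 (without control 1) to 0.71 for the precursor B genes, from -1.36 to 0.27 for the B lineage genes, and from -0.060 to 0.57 (without control 2) for the T lineage genes. Under scaling to other B cell genes they were 0.78, -0.10 and 0.64. Of 32 spleen members 14 changed sign without control 2, 6 without control 1 and 7 under that scaling.

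In liver the precursor B median was 0.15 to 0.31 with a library left out, 0.19 under leukocyte scaling and 0.18 relative to the leukocyte median. The B lineage median was -0.12 to -0.051 with a library left out, -0.063 with a filter at 5, -0.17 under median-of-ratios scaling, -0.21 under leukocyte scaling, -0.22 relative to the leukocyte median, -0.18 with edgeR and -0.19 with DESeq2. The T lineage median, over 5 genes, was -0.57 to -0.22 with a library left out, -0.15 with a pseudocount of 2, -0.010 with no filter, -0.24 under median-of-ratios scaling, -0.28 under leukocyte scaling, -0.29 relative to the leukocyte median, and -0.32 with either edgeR or DESeq2. The precursor minus B lineage difference was 0.31 with a pseudocount of 2 and 0.33 to 0.48 with a library left out in liver, and 0.34 to 1.25 in spleen.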
